A study of Mus musculus with 6 samples.

Results

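Solute carriers are the membrane proteins that move amino acids, sugars, nucleosides, vitamins, metals and inorganic ions across the plasma membrane and the membranes of mitochondria, lysosomes and the Golgi. They are numbered by family (the number before the letter a) and then by member, and each family tends to share a kind of substrate. In T cells they are known for the uptake of leucine, glutamine and other nutrients that growth after antigen contact requires, and for the exchange of ADP, ATP and metabolites between cytosol and mitochondria. The members described here are expressed genes with symbols of these families in CD8 T cells, 155 of 23284 genes in the count tables. The members were chosen by symbol and level: the symbol had to match the pattern Slc, number, a, number, and the gene had to reach 1 CPM (count per 1000000 gene counts) in 3 or more of the 6 libraries. The pattern took in Slc9a3r1, Slc4a1ap, Slc7a6os and Slc2a4rg-ps, which are not carriers. It missed expressed carriers with symbols of another form, such as Slc35b1 and Slco3a1. Of 337 symbols with that pattern, 178 stayed under this level, 32 of them with 0 counts in every library. The other 4, Slc2a1, Slc2a3, Slc16a1 and Slc16a3, were left out by name.

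The cells were sorted from lymph nodes of C3H/HeJ mice as CD3+CD8+CD44+CXCR3+ T cells, a surface phenotype of antigen-experienced cells, and divided by surface NKG2D, the activating receptor that Klrk1 encodes. From 3 mice came 3 libraries of NKG2D+ and 3 of NKG2D- cells, and both populations shared every other mark of the gate. Age, any treatment and the disease state of the mice were not stated in the labels. Same-numbered libraries were taken as 1 mouse, and they deviated together from their group means. The NKG2D+ libraries held 63232698, 89184611 and 73989561 gene counts and the NKG2D- libraries 41168816, 59235219 and 67315805, so that 1 CPM corresponded to between 41.2 and 89.2 counts. Values below are CPM with TMM-scaled library sizes, unless a level is said to be per kilobase of transcript.

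Defining markers were checked first. Klrk1 stood at 409, 312 and 342 CPM in NKG2D+ and at 34.5, 37.1 and 36.1 CPM in NKG2D- libraries 1, 2 and 3, in the direction of the sort. All 8 T-cell and sort genes listed were present in all 6 libraries, and besides Klrk1 none passed edgeR's test. Cd44, a marker of the gate, stood at 430.1, 177 and 224 CPM in NKG2D+ and 137, 136 and 133 CPM in NKG2D- libraries (log2 fold change 1.03, edgeR adjusted p = 0.130). Cd3g stood at 866, 423 and 547 CPM in NKG2D+ and 455, 401 and 418 CPM in NKG2D- libraries (0.53, adjusted p = 0.283 by edgeR), and Cd3d at 333, 329.6 and 327 CPM in NKG2D+ and 397, 354 and 368 CPM in NKG2D- libraries (-0.18, adjusted p = 0.205 by edgeR). The groups did not overlap for Cd44 and Cd3d, while they did for Cd3g, Cd3e, Cd8a, Cd8b1 and Cxcr3. Markers of B cells moved with the groups: the 12 genes listed summed to 657, 415 and 462 CPM in NKG2D+ and 114, 302 and 251 CPM in NKG2D- libraries, and for 11 of the 12 all NKG2D+ libraries lay above, although none passed edgeR's test. Markers of myeloid and dendritic cells summed to 25.2, 18.8 and 21.96 CPM in NKG2D+ and 13.7, 15.6 and 14.9 CPM in NKG2D- libraries, but they ran in different directions. Of the 13 of 16 that could be tested, 3 lay above in all NKG2D+ libraries (23.1%, against 15.1% of all genes tested). Another 2 lay below (15.4%, against 14.1%), and 8 overlapped. Of the 11 stromal and endothelial markers listed, only Col1a1, Col1a2 and Pdgfrb could be tested. The list summed to 6.86, 9.63 and 8.61 CPM in NKG2D+ and 2.32, 3.26 and 3.57 CPM in NKG2D- libraries. Col1a1 and Pdgfrb were called higher by edgeR, 2 of 3 tested, against 1.65% of all genes tested. The untested markers reached at most 0.234 CPM (Cdh5, NKG2D- library 3), with Ccl19 and Ccl21a at 0 counts throughout. Sums of the erythroid and platelet list overlapped between the populations, with 2.45 to 4.20 CPM in NKG2D+ and 3.55 to 4.01 CPM in NKG2D- libraries, and Hba-a1, Hba-a2, Hbb-b2 and Ppbp at 0. Sums of gamma-delta, NKT and NK markers were 4.65 to 6.79 CPM in NKG2D+ and 2.02 to 3.59 CPM in NKG2D- libraries. Those of plasma cell markers were 3.54 to 7.14 CPM in NKG2D+ and 1.26 to 5.32 CPM in NKG2D- libraries. CD4 T-cell markers summed to 123, 44.4 and 58.5 CPM in NKG2D+ and 51.9, 55.9 and 47.8 CPM in NKG2D- libraries, but the 4 genes of that list ran in different directions. Foxp3 stood at 7.27, 2.45 and 4.94 CPM in NKG2D+ and 20.8, 16.2 and 14.4 CPM in NKG2D- libraries (log2 fold change -1.81), Cd40lg at 47.7, 3.57 and 6.90 CPM in NKG2D+ and 2.09, 1.93 and 1.36 CPM in NKG2D- libraries (3.44) and Zbtb7b at 53.02, 33.03 and 37.4 CPM in NKG2D+ and 18.7, 27.4 and 21.5 CPM in NKG2D- libraries (0.87), each without overlap, while Cd4 overlapped. None of the 4 passed edgeR's test (adjusted p = 0.0687 to 0.932). In sorted bulk RNA, a change in the share of a cell type and a change of RNA per cell cannot be told apart, and the part of these cells in the values below was not tested.

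Most members, like most genes tested, had a log2 fold change under 0.5 in size. Slc22a15, Slc25a24, Slc41a2 and Slc27a6 differed by 4-fold or more. Of these, Slc41a2 and Slc27a6 reached 1 CPM in NKG2D+ libraries only, and Slc25a24 and Slc27a6 fell under 4-fold without NKG2D+ library 1. Of the 150 members that reached 1 CPM in at least 1 library of each population, 1 was higher in NKG2D+ cells, the organic cation and zwitterion carrier gene Slc22a15, and 0 were lower, by edgeR's quasi-likelihood test at an adjusted p under 0.05. That is 0.667% of these members higher, where 1.65% of all 12951 genes tested were higher and 0.363% lower. At an unadjusted p under 0.05, 22 members were higher (14.7%, against 12.5% of all genes) and 14 lower (9.33%, against 8.62%). By DESeq2 15 passed as higher (10%, against 7.73% of all genes) and 4 as lower (2.67%, against 3.41%). The 3 NKG2D+ libraries lay above all NKG2D- libraries for 26 of the 150 members (17.3%, against 15.1% of all genes) and below them for another 26 (17.3%, against 14.1%). The median log2 fold change of the 150 was -0.02 and that of all genes -0.01. Their log2 fold change was under 0.5 in size for 132 of 150 members (88%), as for 82.5% of all genes tested. The sum of all 155 members took 0.788%, 0.808% and 0.822% of gene counts in NKG2D+ and 0.773%, 0.806% and 0.779% in NKG2D- libraries.

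**Figure D1:**
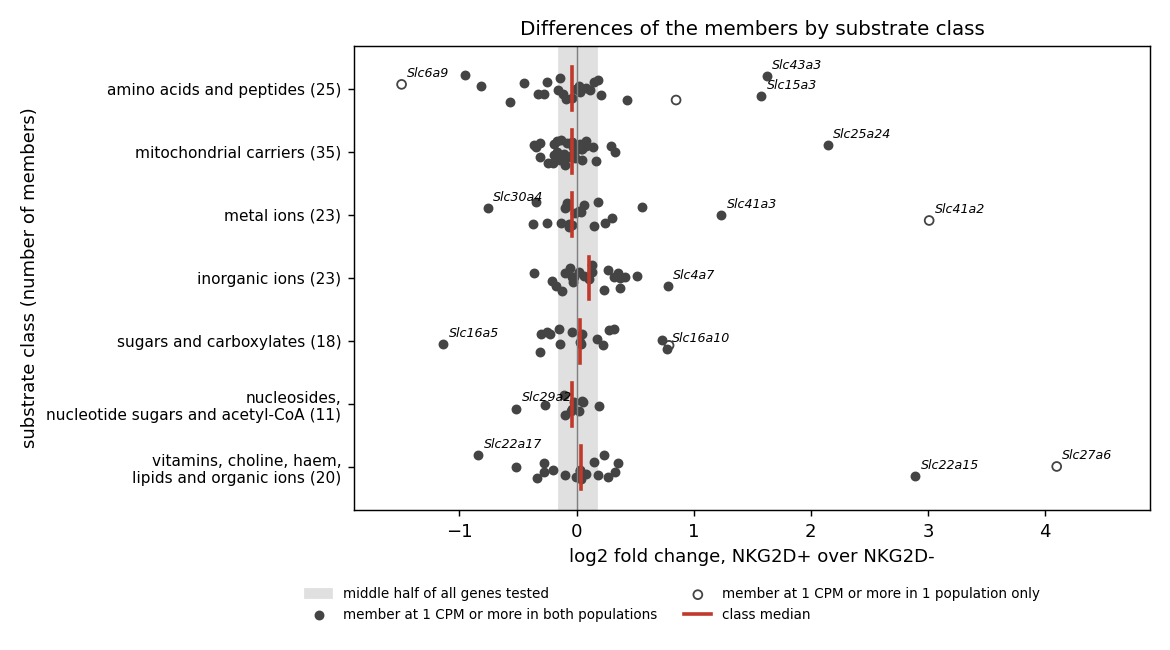
Log2 fold change of NKG2D+ over NKG2D- cells on the x axis for each of the 155 members, in rows by substrate class, with the class median as a red line and the quartile range of all genes tested in grey. Most members sit within 0.5 of 0, while Slc27a6, Slc41a2, Slc22a15 and Slc25a24 lie beyond 2.

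Slc22a15 belongs to the family of organic cation and anion carriers, and its human protein is known to carry zwitterions such as ergothioneine. It stood at 62.1, 14.9 and 25.6 CPM in NKG2D+ libraries 1, 2 and 3, and 4.84, 4.77 and 4.23 CPM in the NKG2D- libraries of the same numbers. All NKG2D+ libraries lay well above the NKG2D- libraries, and library 1 was 2 or more times as high as the other NKG2D+ libraries. The mean was 34.2 ± 24.7 CPM over NKG2D+ libraries and 4.61 ± 0.334 CPM over NKG2D- libraries (SD, n = 3 each), a 7.41-fold higher level in the NKG2D+ population (log2 fold change 2.89, SE 0.51, edgeR adjusted p = 0.0481). Without NKG2D+ library 1 the log2 fold change was 2.14 (edgeR adjusted p = 0.00589). The edgeR call was lost with the mouse as a block (adjusted p = 0.0882), with limma-voom (adjusted p = 0.142) and without the filter on low counts (adjusted p = 0.105). It was also lost without NKG2D+ library 3 or any 1 of the NKG2D- libraries (adjusted p = 0.124 to 0.231).

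The next largest difference among these 150 members was in Slc25a24, a mitochondrial carrier that exchanges ATP-magnesium for phosphate. It stood at 106, 29.7 and 42.8 CPM in NKG2D+ libraries 1, 2 and 3, and 10.4, 16.97 and 12.8 CPM in the NKG2D- libraries of the same numbers. The groups did not overlap, and NKG2D+ library 1 was again the highest. The log2 fold change of 2.14 (SE 0.48) missed the threshold on all libraries (edgeR adjusted p = 0.0782) and passed without NKG2D+ library 1 (1.43, adjusted p = 0.0272) or without NKG2D+ library 2 (2.46, adjusted p = 0.0233). In both populations the order of the libraries was the same for Slc25a24 as for the summed B-cell markers given above. For Slc22a15 it was the same in NKG2D+ and not in NKG2D- libraries. Slc15a3, Slc41a3 and Slc4a7, described below, shared the order of Slc25a24 in both populations. How many of all genes share it was not counted. The part of B cells in any of these differences was not tested.

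A further 5 members reached 1 CPM only in libraries of 1 population. They passed the level rule through the population where they were high, so their difference is a description and is given without a test. Slc41a2, a magnesium carrier, stood at 7.86, 4.24 and 5.32 CPM in NKG2D+ and 0.202, 0.947 and 0.951 CPM in NKG2D- libraries, a log2 fold change of 3.01. Slc27a6, of the fatty acid transport family, stood at 22.6, 1.34 and 2.67 CPM in NKG2D+ and 0.554, 0.592 and 0.405 CPM in NKG2D- libraries. NKG2D+ library 1 set its high mean: the fitted log2 fold change was 4.10 with it and 1.96 without it. The intestinal peptide carrier gene Slc15a1 stood at 2.01, 1.09 and 1.10 CPM in NKG2D+ and 0.705, 0.896 and 0.717 CPM in NKG2D- libraries. The sugar carrier gene Slc2a6 stood at 1.89, 1.23 and 0.985 CPM in NKG2D+ and 0.856, 0.811 and 0.702 CPM in NKG2D- libraries. Slc6a9, which encodes the glycine carrier GlyT1, was the 1 member of these 5 with the higher level in NKG2D- cells, at 0.243, 0.693 and 0.583 CPM in NKG2D+ and 1.23, 1.505 and 1.58 CPM in NKG2D- libraries. Just inside the level rule were Slc2a6 and Slc15a1, which reached 1.03 and 1.10 CPM, without TMM scaling, in the library that decided their entry. Just outside it were Slc7a7 and Slc23a3, with 0.976 and 0.972 CPM.

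**Figure D2:**
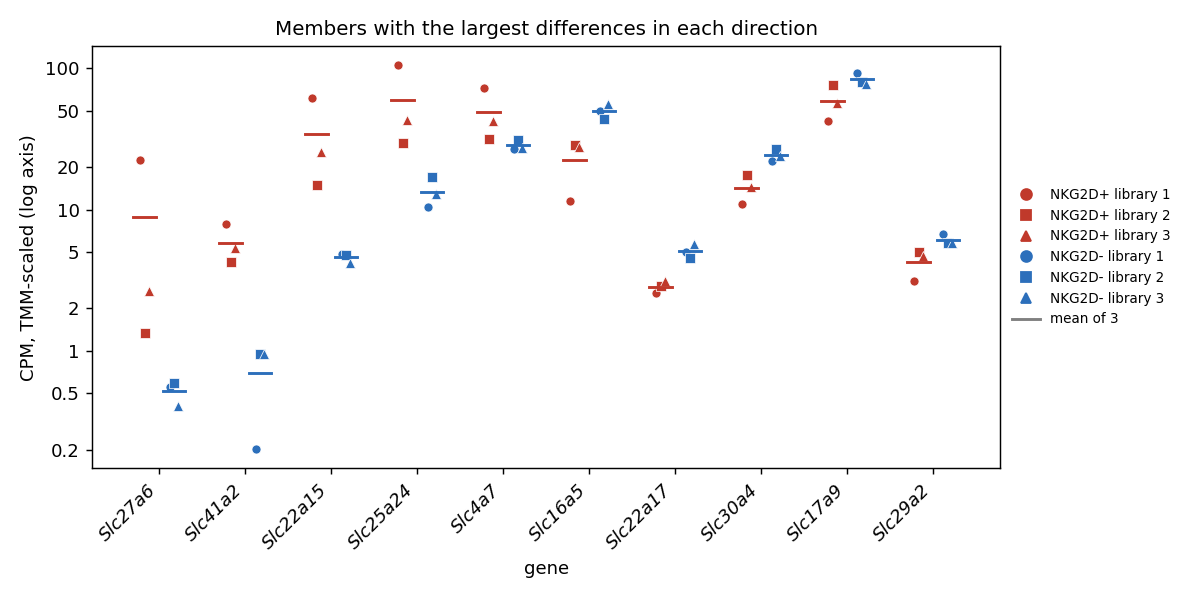
CPM on a log axis in each library for the 5 largest log2 fold changes in each direction among members whose mean reached 5 CPM in either population, with NKG2D+ libraries in red, NKG2D- libraries in blue and a line at the mean of 3. NKG2D+ library 1 is the highest NKG2D+ library for the 5 genes with positive values (Slc27a6, Slc41a2, Slc22a15, Slc25a24 and Slc4a7) and the lowest for the 5 with negative values (Slc16a5, Slc22a17, Slc30a4, Slc17a9 and Slc29a2).

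The promoter sequences of the members with the largest differences beside Slc27a6 are shown for orientation, from 250 bases before to 50 after the gene start, as given by RefSeq on GRCm38.p6, a later build than the mm9 of the counts. Of the 155 members, 115 matched a promoter in that table. Capitals mark letters that matched 1 of 4 motifs searched on both strands, CACGTG (E-box), TGANTCA (AP-1), AGGTGTGA (T-box) and TGTGGT (RUNX). Slc22a15 and Slc41a2 matched none of them, and Slc25a24 matched RUNX.
Slc22a15 (chr3:101924404-101924703, minus strand): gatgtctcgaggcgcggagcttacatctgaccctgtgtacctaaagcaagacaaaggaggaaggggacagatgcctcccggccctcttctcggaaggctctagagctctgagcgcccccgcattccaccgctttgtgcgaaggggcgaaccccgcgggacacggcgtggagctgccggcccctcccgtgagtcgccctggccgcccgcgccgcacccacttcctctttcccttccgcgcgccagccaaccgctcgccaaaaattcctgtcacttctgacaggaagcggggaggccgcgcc
Slc41a2 (chr10:83337768-83338067, minus strand): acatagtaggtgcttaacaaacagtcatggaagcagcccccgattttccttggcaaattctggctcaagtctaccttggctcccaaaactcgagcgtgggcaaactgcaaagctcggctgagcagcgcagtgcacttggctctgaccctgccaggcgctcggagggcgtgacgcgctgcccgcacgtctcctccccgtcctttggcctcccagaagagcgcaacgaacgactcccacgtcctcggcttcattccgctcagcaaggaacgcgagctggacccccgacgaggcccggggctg
Slc25a24 (chr3:109122899-109123198, plus strand): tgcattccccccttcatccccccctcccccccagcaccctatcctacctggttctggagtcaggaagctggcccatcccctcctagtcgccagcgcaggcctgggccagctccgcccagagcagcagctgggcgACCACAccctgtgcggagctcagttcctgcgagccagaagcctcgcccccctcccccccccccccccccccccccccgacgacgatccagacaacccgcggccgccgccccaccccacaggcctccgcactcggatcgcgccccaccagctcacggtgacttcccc
Across the 115 member promoters, the E-box letters occurred in 17 (14.8%), against 10.2% of the 9194 promoters of genes tested here and 7.24% of all 27025 promoters. The AP-1 letters occurred in 8 (6.96%, against 4.95% and 7.93%), RUNX in 14 (12.2%, against 12.8% and 16.9%) and T-box in 1 (0.87%, against 0.946% and 1.27%). A match of letters is a description and no test was made of it.

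Amino acid and peptide carriers (25 members, of which 23 reached 1 CPM in both populations) had 0 calls by edgeR. In 14 of the 23 the populations overlapped, as in 9177 of all 12951 genes tested. All NKG2D+ libraries lay above in 4 (17.4%, against 15.1% of all genes) and below in 5 (21.7%, against 14.1%). The median log2 fold change of the 23 was -0.04. Slc3a2 encodes the CD98 heavy chain, which holds several light chains of family 7 at the cell surface. It stood at 171, 165 and 162 CPM in NKG2D+ and 165, 158 and 167 CPM in NKG2D- libraries, and all 6 values lay within a narrow band (log2 fold change 0.02, SE 0.06). Its leucine-carrying light chain LAT1, encoded by Slc7a5, was far more variable, at 66.9, 162 and 134 CPM in NKG2D+ and 123, 168 and 166 CPM in NKG2D- libraries. NKG2D+ library 1 was the lowest of all 6, and the NKG2D- library of the same mouse was the lowest of its population. The fitted difference was -0.33 with an SE of 0.31 (edgeR adjusted p = 0.596). Slc7a6, which encodes another CD98 light chain, y+LAT2, stood at 56.1, 50.9 and 52.3 CPM in NKG2D+ and 71.7, 58.6 and 63.3 CPM in NKG2D- libraries. Its groups did not overlap but its log2 fold change of -0.28 did not pass (edgeR adjusted p = 0.152). Its opposite-strand neighbour Slc7a6os, which is no carrier and was taken in by its symbol, stood at 40.5, 40.1 and 39.9 CPM in NKG2D+ and 46.6, 41.6 and 44.5 CPM in NKG2D- libraries, and the files do not tell whether reads were counted by strand.

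Glutamine and other neutral amino acids enter T cells through Slc1a5 (ASCT2), Slc38a1 and Slc38a2. Slc1a5 stood at 129.7, 88.4 and 103 CPM in NKG2D+ and 93.7, 68.01 and 76.5 CPM in NKG2D- libraries. In each mouse the NKG2D+ library was above its NKG2D- partner, although the groups overlapped, and the log2 fold change of 0.43 (SE 0.17) did not pass (edgeR adjusted p = 0.207). Its paralog Slc1a4 (ASCT1) ran the other way in all 3 mice, at 0.791, 2.70 and 2.36 CPM in NKG2D+ and 2.44, 3.75 and 4.12 CPM in NKG2D- libraries (edgeR adjusted p = 0.356). Slc38a2 stood at 214, 249 and 255 CPM in NKG2D+ and 241, 256 and 266 CPM in NKG2D- libraries. Slc38a1 stood at 176, 205 and 205 CPM in NKG2D+ and 191, 199 and 212 CPM in NKG2D- libraries. Both had overlapping groups, with log2 fold changes of -0.09 for Slc38a2 and -0.04 for Slc38a1. The arginine carrier gene Slc7a1 had the smaller value in the NKG2D+ library of each mouse, at 86.5, 139.6 and 128 CPM in NKG2D+ and 139, 169 and 176 CPM in NKG2D- libraries, with a log2 fold change of -0.45 that did not pass (edgeR adjusted p = 0.227).

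**Figure D3:**
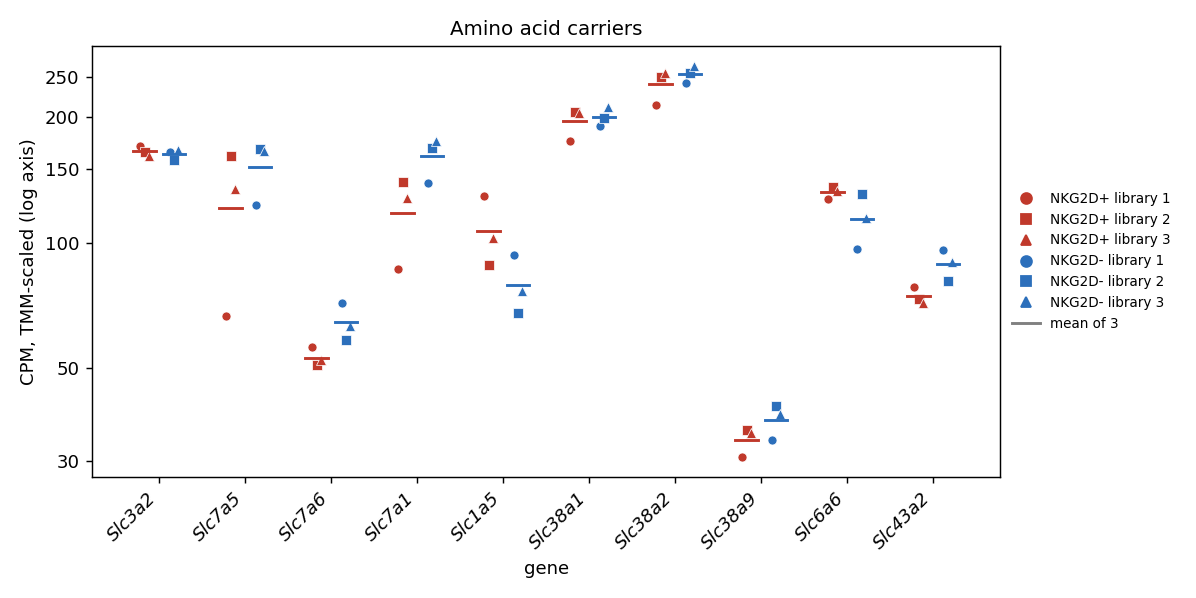
CPM on a log axis in each library for 10 amino acid carrier genes, NKG2D+ libraries in red, NKG2D- libraries in blue, with a line at the mean of 3. Slc3a2 lies between 158 and 171 CPM in all 6 libraries, while Slc7a5 and Slc7a1 are lowest in NKG2D+ library 1.

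At lower levels, 2 genes of lysosomal or purine transport had the largest log2 fold changes of this class. Slc43a3, whose human protein carries purine nucleobases although its family is grouped here with amino acids, stood at 4.59, 1.58 and 2.89 CPM in NKG2D+ and 1.44, 0.811 and 0.717 CPM in NKG2D- libraries. Slc15a3, a lysosomal peptide and histidine carrier, stood at 5.05, 1.55 and 2.63 CPM in NKG2D+ and 0.831, 1.28 and 0.951 CPM in NKG2D- libraries. In both genes the groups did not overlap and NKG2D+ library 1 was the highest, with log2 fold changes of 1.62 and 1.58 and edgeR adjusted p-values of 0.113 and 0.116. The related lysosomal gene Slc15a4 stood at 39.1, 30.6 and 34.3 CPM in NKG2D+ and 34.01, 26.9 and 30.9 CPM in NKG2D- libraries, with overlapping groups.

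Of the 35 mitochondrial carriers, all reached 1 CPM in both populations, and 0 passed by edgeR. Besides Slc25a24, every member of this class had a log2 fold change under 0.5 in size. The class median was -0.04, and for 7 members (20%, against 14.1% of all genes tested) all NKG2D+ libraries lay below all NKG2D- libraries, and for 3 (8.57%, against 15.1%) above them. Slc25a5, a carrier that exchanges ADP for ATP, had the highest level per kilobase of transcript of all 154 members with a known length, at 216 CPM per kilobase in NKG2D+ and 238 in NKG2D- cells. Its values were 259.5, 291 and 254 CPM in NKG2D+ and 292, 301 and 294 CPM in NKG2D- libraries (log2 fold change -0.14, SE 0.07). The phosphate carrier gene Slc25a3 followed at 177 CPM per kilobase in NKG2D+ and 191 in NKG2D- cells. The other ADP/ATP carrier gene, Slc25a4, had 78.6 CPM per kilobase in NKG2D+ and 82.6 in NKG2D- cells. Slc25a4 and Slc25a5 are close in sequence, and reads placed at several sites were set aside, so their levels are uncertain. The dicarboxylate carrier gene Slc25a10 lay higher in all NKG2D+ libraries, at 12.9, 16.4 and 14.7 CPM in NKG2D+ and 11.1, 12.6 and 11.4 CPM in NKG2D- libraries (log2 fold change 0.33, edgeR adjusted p = 0.193). The ornithine carrier gene Slc25a15 lay lower in all of them, at 15.1, 14.8 and 15.5 CPM in NKG2D+ and 17.2, 17.3 and 17.8 CPM in NKG2D- libraries (-0.20, adjusted p = 0.223 by edgeR). The oxoglutarate carrier gene Slc25a11 varied little, at 76.9, 81.2 and 77.6 CPM in NKG2D+ and 75.6, 78.6 and 77.4 CPM in NKG2D- libraries.

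Metal carriers move zinc into the cytosol (family 39) or out of it (family 30), and magnesium, copper, iron and manganese through families 41, 31 and 11. Of the 23 members, 22 reached 1 CPM in both populations and 0 of those passed by edgeR, with a median log2 fold change of -0.05. The zinc exporter gene Slc30a4 stood at 10.9, 17.7 and 14.4 CPM in NKG2D+ and 22.2, 26.8 and 23.9 CPM in NKG2D- libraries, with no overlap between groups (log2 fold change -0.76, SE 0.18, edgeR adjusted p = 0.0841). Slc41a3, a relative of Slc41a2, stood at 5.44, 2.22 and 3.13 CPM in NKG2D+ and 1.06, 1.94 and 1.54 CPM in NKG2D- libraries (1.24, SE 0.38, edgeR adjusted p = 0.137). Slc41a1, the remaining gene of this magnesium family, stood at 49.2, 44.97 and 48.1 CPM in NKG2D+ and 50.7, 45.9 and 49.5 CPM in NKG2D- libraries with overlapping groups. The 3 members of the family thus had log2 fold changes of 3.01, 1.24 and -0.04. Slc11a2, which encodes the iron carrier DMT1, stood at 72.1, 110.04 and 97.2 CPM in NKG2D+ and 134, 112 and 116 CPM in NKG2D- libraries and did not overlap between groups (-0.37, edgeR adjusted p = 0.237), and its macrophage relative Slc11a1 was under the level rule. The zinc importer gene Slc39a7 stood at 120.2, 105 and 125 CPM in NKG2D+ and 148, 106 and 129.6 CPM in NKG2D- libraries. Another of that family, Slc39a6, stood at 119, 71.3 and 83.8 CPM in NKG2D+ and 77.7, 81.3 and 87.1 CPM in NKG2D- libraries, and the groups overlapped for both.

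Carriers of inorganic ions (23 members) had the highest class median, 0.10, with 0 calls by edgeR, 6 members above in all NKG2D+ libraries (26.1%, against 15.1% of all genes tested) and 2 below (8.7%, against 14.1%). Their summed level was 1719, 1745 and 1762 CPM in NKG2D+ and 1679, 1668 and 1674 CPM in NKG2D- libraries. Both the median and the sum include Slc9a3r1 and Slc4a1ap, which are not carriers. The class median is the value of Slc9a3r1 itself, and without Slc9a3r1 the sums of the populations overlap. Slc9a9, a sodium/proton exchanger of endosomes, had the smallest p of the class. It stood at 83.01, 66.3 and 67.7 CPM in NKG2D+ and 53.3, 55.8 and 53.3 CPM in NKG2D- libraries (log2 fold change 0.42, SE 0.10, edgeR adjusted p = 0.0841). All NKG2D+ libraries were above all NKG2D- libraries. Slc4a7, a sodium bicarbonate carrier, stood at 72.8, 31.4 and 42.7 CPM in NKG2D+ and 26.7, 31.2 and 27.5 CPM in NKG2D- libraries, with NKG2D+ library 2 barely above the highest NKG2D- library (0.78, edgeR adjusted p = 0.192). The phosphate importer gene Slc20a1 had 98.3 CPM per kilobase in NKG2D+ and 96.6 in NKG2D- cells, with values of 301, 329 and 347 CPM in NKG2D+ and 309, 315 and 337 CPM in NKG2D- libraries, with overlapping groups. The potassium chloride carrier gene Slc12a7 stood at 282, 382 and 370.1 CPM in NKG2D+ and 387, 395 and 384 CPM in NKG2D- libraries, where NKG2D+ library 1 was the lowest. Slc9a3r1 and Slc4a1ap, which encode a scaffold and an adaptor protein rather than carriers, were also taken in by their symbols. Slc9a3r1 stood at 275, 239 and 219 CPM in NKG2D+ and 257, 209 and 216 CPM in NKG2D- libraries, and Slc4a1ap between 38.2 and 42.2 CPM over all 6 libraries, with overlapping groups for each.

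Of the 18 members for sugars and carboxylates, 17 reached 1 CPM in both populations, with a median log2 fold change of 0.03 and 0 calls by edgeR. This class held the uncalled member with the smallest p, Slc16a10, which carries aromatic amino acids and thyroid hormones. It stood at 9.69, 10.8 and 9.35 CPM in NKG2D+ and 4.84, 6.24 and 6.38 CPM in NKG2D- libraries. The NKG2D+ libraries lay close together, all above the NKG2D- libraries, with a log2 fold change of 0.77 (SE 0.15, edgeR adjusted p = 0.0551). It passed without NKG2D+ library 1 (adjusted p = 0.0406, edgeR) or 2 (adjusted p = 0.0473) and by DESeq2 (adjusted p = 0.000136). Slc16a6, of the same monocarboxylate family, stood at 49.99, 52.1 and 55.2 CPM in NKG2D+ and 43.8, 44.04 and 42.1 CPM in NKG2D- libraries (0.28, SE 0.07, edgeR adjusted p = 0.0895). Slc16a5, another member of that family, had the most negative log2 fold change of the 150 members, at 11.6, 28.6 and 27.6 CPM in NKG2D+ and 49.8, 43.8 and 55.6 CPM in NKG2D- libraries. NKG2D+ library 1 was the lowest by far, and the log2 fold change was -1.14 (SE 0.33, edgeR adjusted p = 0.122). Without that library the call was made, at -0.82 (adjusted p = 0.0105 by edgeR). Slc50a1, a sugar exporter, stood at 62.7, 73.7 and 67.3 CPM in NKG2D+ and 76.9, 76.6 and 72.2 CPM in NKG2D- libraries (log2 fold change -0.15). The glucose-phosphate carrier gene Slc37a1 stood at 61.5, 93.00 and 84.1 CPM in NKG2D+ and 97.96, 98.00 and 100.1 CPM in NKG2D- libraries (-0.31), where NKG2D+ library 1 was again the lowest. Slc2a4rg-ps, annotated as a pseudogene, stood at 86.1, 104 and 136 CPM in NKG2D+ and 120.3, 107 and 133 CPM in NKG2D- libraries, with overlapping groups.

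The 11 carriers of nucleosides, nucleotide sugars and acetyl-CoA had log2 fold changes from -0.51 to 0.19 and 0 calls by edgeR. Summed, they came to 340, 362 and 357 CPM in NKG2D+ and 372, 370 and 372 CPM in NKG2D- libraries, without overlap. Without Slc35a4, whose own groups overlapped, the sums of the populations overlap. In 8 of the 11 the populations overlapped. All NKG2D+ libraries lay above in 1 (9.09%, against 15.1% of all genes tested) and below in 2 (18.2%, against 14.1%). The 2 that lay below were the equilibrative nucleoside carriers of the cell surface. Slc29a2 stood at 3.12, 5.004 and 4.72 CPM in NKG2D+ and 6.75, 5.85 and 5.77 CPM in NKG2D- libraries (log2 fold change -0.51, edgeR adjusted p = 0.223). Slc29a1 stood at 41.5, 56.1 and 51.4 CPM in NKG2D+ and 61.5, 58.6 and 59.3 CPM in NKG2D- libraries (-0.27, edgeR adjusted p = 0.239). The Golgi carrier of CMP-sialic acid, encoded by Slc35a1, stood at 23.6, 25.02 and 24.99 CPM in NKG2D+ and 23.98, 25.1 and 26.4 CPM in NKG2D- libraries, a range of less than 3 CPM over all 6 libraries. Slc35a4, of the same family, stood at 89.6, 102 and 91.03 CPM in NKG2D+ and 107, 96.8 and 100.2 CPM in NKG2D- libraries.

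Carriers of vitamins, choline, haem, lipids and organic ions (20 members, 19 at 1 CPM in both populations) held Slc22a15 as their only edgeR call, with a median log2 fold change of 0.03 over the 19. Slc22a17, which encodes a receptor for lipocalin 2, stood at 2.56, 2.89 and 3.12 CPM in NKG2D+ and 5.01, 4.56 and 5.74 CPM in NKG2D- libraries. The groups did not overlap (-0.84, SE 0.17, edgeR adjusted p = 0.0611), and DESeq2 called it lower (adjusted p = 0.000397). Slc17a9, which loads ATP into vesicles, stood at 42.3, 76.4 and 57.2 CPM in NKG2D+ and 93.1, 80.5 and 78.03 CPM in NKG2D- libraries (-0.52, edgeR adjusted p = 0.215). The choline carrier gene Slc44a2 was exceeded per kilobase by Slc25a5 and Slc25a3 only, with 146 CPM for NKG2D+ and 185 CPM for NKG2D- cells, and stood at 417, 593 and 516 CPM in NKG2D+ and 627, 652 and 655 CPM in NKG2D- libraries. NKG2D+ library 1 was the lowest and the groups did not overlap (-0.34, edgeR adjusted p = 0.191). Slc48a1, a haem carrier, stood at 29.7, 26.7 and 26.98 CPM in NKG2D+ and 19.9, 23.1 and 22.1 CPM in NKG2D- libraries (0.36, edgeR adjusted p = 0.0943). The folate carrier gene Slc19a1 stood at 20.1, 22.5 and 21.3 CPM in NKG2D+ and 26.3, 25.8 and 25.6 CPM in NKG2D- libraries (-0.28, edgeR adjusted p = 0.116). Neither gene had overlapping groups.

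Levels of some members also followed the replicate number, which is taken here as the mouse. The urea carrier gene Slc14a1 stood at 39.8, 99.8 and 65.8 CPM in NKG2D+ and 37.4, 92.1 and 70.03 CPM in NKG2D- libraries. In each mouse the populations were close to each other, with at most 0.12 between them on the log2 scale, whereas the mean of both populations ranged over 1.30 from mouse 1 to mouse 2. Of the 155 members, 3 had mouse means that ranged over more than 1 on that scale, Slc27a6, Slc14a1 and Slc22a15, and for the other two NKG2D+ library 1 held the highest value. For 46 of the 155 members the range of mouse means was larger than the difference between populations in any mouse. That count was not made over all genes tested, so it has no background to be set against and is no trait of the members. Same-numbered libraries also share a tag in their deposited names that may stand for a sequencing lane, and the effects of mouse and lane cannot be told apart.

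**Figure D4:**
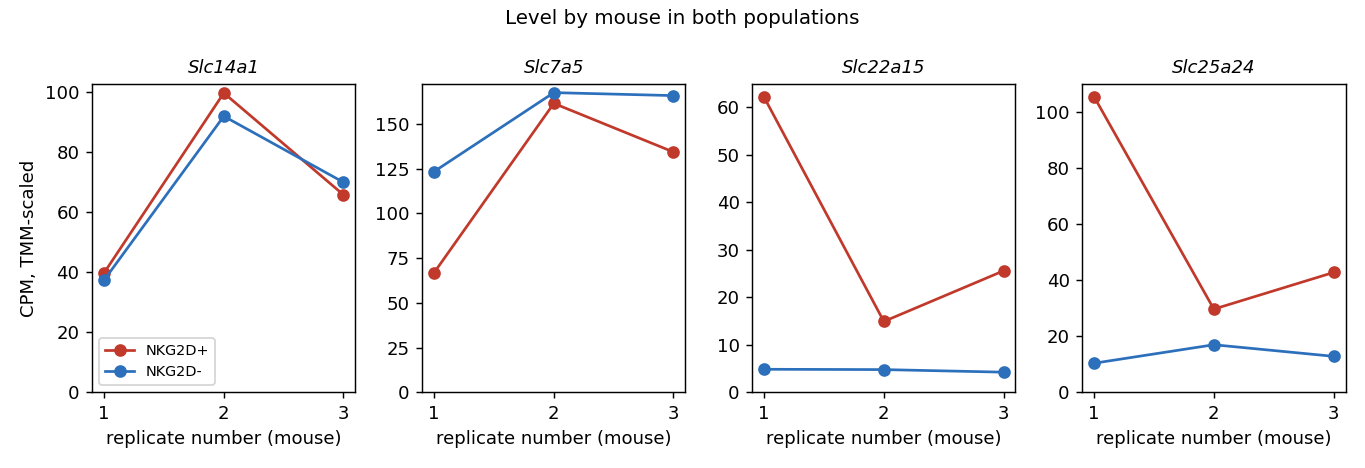
CPM by replicate number for 4 members, with NKG2D+ libraries in red and NKG2D- libraries in blue. Slc14a1 has the same order of mice in both populations, from 37.4 to 99.8 CPM, while Slc22a15 and Slc25a24 vary between mice mainly in NKG2D+ cells.

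The spread between libraries was wider in NKG2D+ cells. The median SD of log2 CPM over 3 libraries was 0.14 in NKG2D+ and 0.11 in NKG2D- cells for the members, and 0.15 and 0.11 for all genes tested. Among the 22 of the 150 members that were higher at an unadjusted p under 0.05, the highest NKG2D+ value was in library 1 for 16 (72.7%), in library 2 for 4 and in library 3 for 2. Library 1 was also the highest for 75.7% of the 1615 genes that were higher at that threshold over the whole table, so the members' share was near the background. Over all 155 members library 1 was the highest NKG2D+ library for 38.7% and the lowest for 46.5%, and over all genes tested for 41.5% and 41.5%. B-cell markers were highest in the same library, and their part in this was not tested.

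Genes of related function were described from lists outside the rule. Of all 12951 genes tested, 1.65% were higher in NKG2D+ cells and 0.363% lower by edgeR, and 12.5% and 8.62% at an unadjusted p under 0.05. Of 56 tested solute carriers that go by other symbols, 2 were higher by edgeR and 0 lower. At the unadjusted threshold 9 were higher and 3 lower, and the median log2 fold change was 0.02. Slco4a1, an organic anion carrier, stood at 8.96, 5.55 and 7.24 CPM in NKG2D+ and 2.39, 2.87 and 2.53 CPM in NKG2D- libraries (log2 fold change 1.48, SE 0.21, edgeR adjusted p = 0.0281). Nipal3, of a magnesium carrier family, stood at 159, 142 and 137 CPM in NKG2D+ and 102, 104 and 101 CPM in NKG2D- libraries (0.52, SE 0.08, adjusted p = 0.029 by edgeR). Of 55 tested genes of transporter chaperones and nutrient sensing, 0 were higher and 1 was lower, beside the same shares of all genes. At the unadjusted threshold 6 were higher and 4 lower, and the median was 0.00. The transferrin receptor gene Tfrc, the main entry route of iron in dividing cells, stood at 44.7, 64.8 and 59.1 CPM in NKG2D+ and 91.7, 113 and 103 CPM in NKG2D- libraries (-0.86, SE 0.15, edgeR adjusted p = 0.0404). The growth regulator gene Myc stood at 85.3, 149 and 123 CPM in NKG2D+ and 221, 165 and 164 CPM in NKG2D- libraries (-0.62, edgeR adjusted p = 0.174), without overlap between the populations. These lists differ from the members in that no minimum level beyond the filter on low counts was set for them.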

How the data were processed

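RNA of 6 sorted T-cell libraries was sequenced (TruSeq RNA kit v2), and per the submitters' processing notes CASAVA 1.8.2 and TopHat2 2.0.4 were used with mouse build mm9. The authors deposited 1 table of read counts per gene and library, with 23284 genes and 5 summary rows, which were left out of library sizes (reads at several sites, 19.7% to 26.2% of the table's total, reads in no gene, 14.0% to 15.9%, and ambiguous reads, 0.715% to 0.836%). Neither the counting program nor its use of strand was stated.

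Counts were tested in R 4.3.3 with edgeR 4.0.16 (TMM, filterByExpr, robust quasi-likelihood F-test, group as the only term). Adjusted p-values are Benjamini-Hochberg over all 12951 genes that passed the filter, which all 155 members did. Transcript length is that of the longest GENCODE vM21 transcript paired with a curated RefSeq mRNA. Alternatives were DESeq2 1.42.0, limma-voom (limma 3.58.1), RLE scaling, no filter, a stricter level rule, each library left out, and the replicate number as a block. The design text gives 3 mice, and deviations from group means correlated between same-numbered libraries (r = 0.25, 0.20 and 0.38 across genes). Libraries of different numbers were not compared, and a shared lane could give the same correlation. That the numbers pair the libraries by mouse is therefore taken, not shown. The group-only edgeR fit was also run on simulated counts, drawn independently for each library. Those counts held no pairing by mouse and no outlying library, so they do not show how the fit handles either.

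The members, classes and lists were chosen with earlier results of these data known. Genes were named by rule: calls, the highest levels per kilobase and smallest p in each class, the largest changes, members of 1 population, those nearest the level threshold, symbols of other kinds of gene, and partner or paralog pairs. Other members named are examples chosen after their values were seen. The values of 1 gene that this rule names are not reported here.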

Additional observations from a re-analysis of the deposited data

How the results depend on the processing

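The count of members higher in NKG2D+ cells, 1 of 150 by edgeR, was 0 without the filter on low counts, 0 with limma-voom, 0 with the replicate number as a block and 15 with DESeq2. The count of members lower, 0 by edgeR, was 4 with DESeq2. When 1 library was left out, the counts ranged from 0 to 12 higher and from 0 to 4 lower, with 4 higher and 2 lower without NKG2D+ library 1, 12 and 4 without NKG2D+ library 2, and 0 without any of the other 4. RLE scaling and a level rule of 1 CPM in all 6 libraries left both counts as they were. Genes called overall ranged from 8 without NKG2D- library 3 to 1312 without NKG2D+ library 2 and 1442 with DESeq2, against 261 in all libraries by edgeR; the cause was not tested. Of the 40 genes followed through these settings, 6 that were never called changed sign, each when 1 library was left out (Slc39a6, Slc14a1, Slc20a1, Slc38a1, Slc3a2 and Slc2a4rg-ps). Slc39a6 stood at -0.08 without NKG2D+ library 1, against 0.15 with it, and Slc14a1 at -0.33 without NKG2D+ library 2, against 0.04 with it. The block ended the call of Slc22a15 and changed no other call among them. With 3 libraries a group, differences of the size seen in most members could not be told from the spread between libraries.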
